A study of Mus musculus with 8 samples.

Results

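The genes described are 4 members of the Slc10 family of transporters (Slc10a1, Slc10a3, Slc10a6 and Slc10a7) and 6 genes that hepatocytes transcribe strongly (Alb, Ttr, Apoa1, Apoa2, Fgb and Serpina1a). They are 10 of the 20145 genes that could be named on the arrays, and every probe whose accession leads to them was kept, which gave 14 of 55681 probes. The Slc10a1 gene was picked for the great brightness of its probe and its difference between the groups of these arrays, and the hepatocyte genes were picked to set beside it. Their signals and differences are therefore given as a description, with no p-value.

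The series profiled tumours of 4T1 cells, a mammary carcinoma line from BALB/c mice, on single-colour mouse expression arrays. Before injection the cells were infected for 24 h with adenovirus at a multiplicity of 50, either an empty virus (control, 4 arrays) or one carrying PRH (4 arrays). They were put into mammary fat pad no. 3 of BALB/C females aged 6 to 8 weeks, and the tumours were removed on day 22. All groups therefore share the cell line, the host strain and exposure to adenovirus. Each array bears a mouse number, and both groups hold numbers 1, 2, 3 and 5. The label of the extraction names endothelial isolates whereas the design text has RNA from each tumour, and the design text names human arrays whereas the probes are mouse, so the material is not settled by the labels. Nothing in the labels says that the numbered samples came from more than 1 infected culture, so the p-values below measure the spread between these samples. In bulk RNA, fewer cells of a type and less RNA per cell cannot be told apart.

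PRH is the product of Hhex, a homeodomain transcription factor that the embryonic liver requires. The Hhex signal was 692, 1020, 669 and 588 on control arrays 1, 2, 3 and 5 and 207, 276, 201 and 228 on the PRH arrays of the same numbers. It was lower where the label says PRH (log2 difference -1.09, SE 0.148, limma adjusted p = 0.00674). With arrays centred on their spike-in probes that call was lost (adjusted p = 0.139). The label gives the virus used before injection, whereas the tumours were removed on day 22. Whether this probe detects PRH carried by the virus was not tested. Arrays of that group are called PRH-labelled, and directions follow the labels throughout. Markers of epithelial cells were well above background for 8 of 8 genes on every array, those of leukocytes for 9 of 9 genes with a probe, and those of endothelium for 11 or 12 of 12. All 8 arrays lay on 1 slide with each group in a row of its own, so slide row and group cannot be told apart.

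Slc10a1 encodes NTCP, the sodium-dependent carrier by which hepatocytes take up conjugated bile acids from portal blood. Slc10a2 carries bile acids in the ileum and bile ducts, Slc10a6 carries sulphated steroids, and Slc10a3 and Slc10a7 have no established bile acid substrate. Albumin (Alb), transthyretin (Ttr, a carrier of thyroxine and retinol-binding protein), the main apolipoproteins of high-density lipoprotein (Apoa1 and Apoa2), the beta chain of fibrinogen (Fgb) and an alpha-1-antitrypsin (Serpina1a) are secreted into plasma by the liver. Liver cells are told from other cells by the joint expression of such genes, so a hepatocyte transporter and these secreted proteins normally appear together.

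The bases just before the transcription start were searched for a short sequence, ATTAA. It was taken as a core of sites for homeodomain proteins, the class to which PRH belongs. The 160 bases upstream of the first listed Slc10a1 start (minus strand), of Alb (plus strand), Fgb (minus strand) and Serpina1a (minus strand) are printed from RefSeq on GRCm38.p6, 5′ to 3′ along the gene. Capitals mark ATTAA or its reverse complement TTAAT. No other homeodomain sequence was searched or marked, so the stretches do not show how members differ in homeodomain sites in general.
Slc10a1, chr12:80968706-80968865: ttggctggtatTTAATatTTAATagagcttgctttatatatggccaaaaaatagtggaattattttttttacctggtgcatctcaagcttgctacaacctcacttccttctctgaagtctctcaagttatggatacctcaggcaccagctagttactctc
Alb, chr5:90460710-90460869: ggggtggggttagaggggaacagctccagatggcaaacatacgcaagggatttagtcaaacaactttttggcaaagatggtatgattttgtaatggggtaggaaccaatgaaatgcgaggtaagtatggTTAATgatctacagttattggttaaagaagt
Fgb, chr3:83049864-83050023: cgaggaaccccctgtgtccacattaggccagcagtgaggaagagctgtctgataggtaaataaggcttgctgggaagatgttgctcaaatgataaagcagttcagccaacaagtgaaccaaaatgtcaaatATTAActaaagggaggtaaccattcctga
Serpina1a, chr12:103863620-103863779: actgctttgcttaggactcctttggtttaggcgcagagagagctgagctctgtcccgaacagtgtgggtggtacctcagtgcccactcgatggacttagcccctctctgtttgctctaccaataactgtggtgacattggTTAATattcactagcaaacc

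In the 250 bases before each start, on either strand, ATTAA was found 2 times for that Slc10a1 start, 3 times for Alb, and 1 time each for Fgb and Serpina1a, and 24.9% of all 32851 promoters of that length held it. It was not found before the other Slc10a1 start, nor before Slc10a6, Slc10a7, Apoa1 or Apoa2. A match describes letters in this window and is not evidence of binding.

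Array control 1 stood apart from the other 7 for the liver genes. Of the 8 probes of the 6 hepatocyte members, 7 read at least 4-fold higher on control 1 than on the highest of the other arrays after scaling each array to its 75th percentile, against 0.900% of all 55681 probes. Each other array had between 30 and 340 probes at least 4-fold above the remaining 7, and control 1 had 501. At 10-fold, control 1 had 273 such probes (0.490% of all), and each other array had between 5 and 33. The hepatocyte marker genes, Slc10a1 left out, were all 6 well above background on control 1, 3 of 6 on the other control arrays and 3 to 5 on the PRH-labelled arrays. Their summed scaled signal was 124.6 on control 1, between 4.25 and 4.93 on the other control arrays and between 5.91 and 8.93 on the PRH-labelled arrays. The member differences and the counts for each list are therefore given with and without control 1. That array was singled out by these same genes, so the values, calls and adjusted p-values without it are a description as well.

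**Figure D1:**
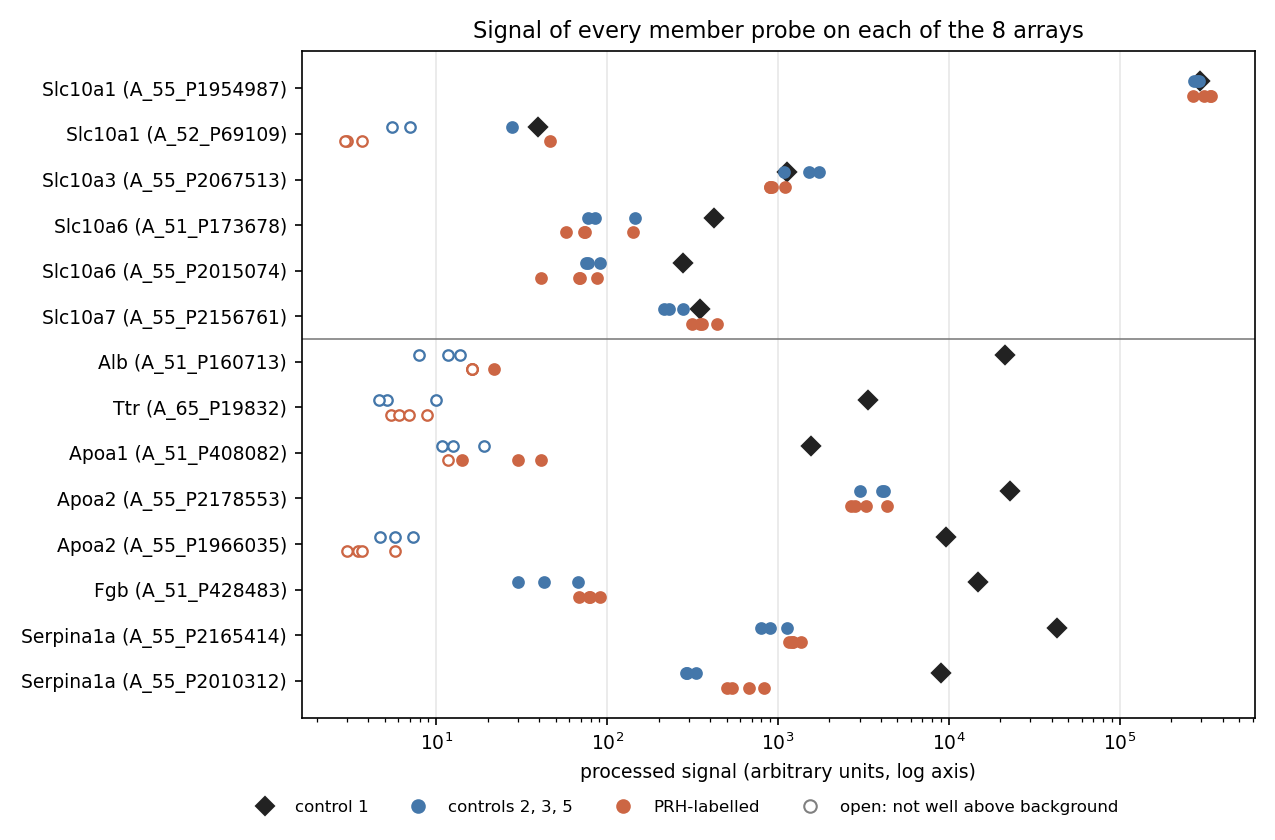
Processed signal (horizontal, arbitrary units on a log axis) of the 14 member probes on each array, with control 1 as black diamonds, the other control arrays blue and the PRH-labelled arrays orange; open circles were not well above background. The bright Slc10a1 probe lies between 269626 and 343692 on all arrays, whereas for Alb control 1 reads 21242 and the next highest array 21.9.

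The bright Slc10a1 probe (A_55_P1954987) did not share this pattern. Its signal was 294064, 273298, 282871 and 290130 on control arrays 1, 2, 3 and 5, and 269626, 336943, 343692 and 310422 on PRH-labelled arrays 1, 2, 3 and 5. These unscaled signals overlapped between the groups, with a log2 difference of 0.14, and control 1 lay among the other arrays. Only 48 of 55681 probes were brighter by mean log2 signal. A probe's brightness also depends on its sequence, so this rank is not a level of Slc10a1 RNA.

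After scaling, its mean was 8.03 ± 0.21 over control arrays and 8.76 ± 0.14 over PRH-labelled arrays (log2 relative to the 75th percentile, mean ± SD, n = 4 each). The difference was 0.73 (SE 0.151), or 1.66-fold, and 0.79 (SE 0.150) without control 1, and the groups did not overlap on this scale in either case. The median difference of all 39463 tested probes was itself 0.22 on this scale. Among the 192 tested probes within 0.5 log2 units of its brightness the median difference was 0.41, with quartiles of 0.26 and 0.55.

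The size of the difference moved with the scaling. It was 0.25 with arrays centred on their median, 0.30 with quantile-normalized arrays, 0.26 after normexp background correction, 0.27 in the authors' deposited values and 0.60 with spike-in centring. All of these were above the median of all tested probes under the same scaling, by 0.25 to 0.51. Scaling to the 75th percentile, the median or the spike-in probes shifts all probes of an array alike. The gap is therefore the same under these by construction (0.51), and they are not separate results. It was 0.30 with quantile normalization, 0.25 after normexp and 0.26 in the authors' values.

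**Figure D2:**
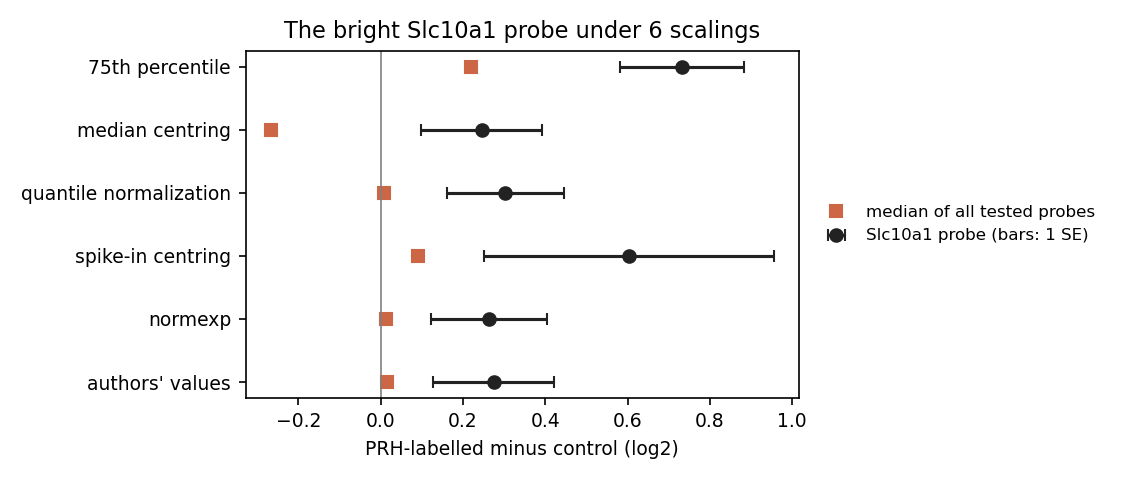
Difference of the bright Slc10a1 probe between PRH-labelled and control arrays (log2, black circles with 1 SE) and the median difference of all tested probes (orange squares) under 6 scalings. The Slc10a1 value ranges from 0.25 to 0.73 and lies right of the median in each.

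The other Slc10a1 probe (A_52_P69109) reads the same accession. Its signal was 39.6, 6.97, 27.9 and 5.48 on control arrays 1, 2, 3 and 5 and 2.99, 2.92, 46.3 and 3.66 on PRH-labelled arrays 1, 2, 3 and 5. It was well above background on control arrays 1 and 3 and PRH-labelled array 3 alone, so it was not tested. With its other readings below background, whether the pair of Slc10a1 probes varied together over the arrays cannot be told. On control 1 the dim probe was below its reading on PRH-labelled array 3, both of them low, whereas most hepatocyte members were highest on control 1 by far.

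By likeness of profile, the gene nearest to the bright Slc10a1 probe among 16376 named genes was Elk1, which encodes an ETS-domain transcription factor that responds to growth-factor signalling. The distance used is the root mean square difference over the 8 arrays between log2 profiles centred on their own means. It was 0.039 for Elk1, against a median of 0.593 over all genes. The Elk1 probe (A_55_P1954986) bears the catalogue number next to that of the Slc10a1 probe, which was noticed after the distances were computed. It was also the nearest of all 39462 other tested probes, named or not, and the second nearest lay at 0.071.

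Its signal was 332704, 302715, 311488 and 311456 on the control arrays and 315061, 374429, 383247 and 362160 on the PRH-labelled arrays, with a difference of 0.78. As for Slc10a1, another probe of the gene was dim: the other Elk1 probe (A_66_P103818) read between 34.2 and 107.3 on control arrays and between 18.6 and 31.9 on PRH-labelled arrays. What either bright probe hybridises to was not tested.

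The next nearest genes were Map6d1 (distance 0.071), Lca5l (0.094), Tmem143 (0.098), 5730409E04Rik (0.099) and Celf4 (0.105). Their signals were far lower, from 127.8 for 5730409E04Rik to 5975 for Celf4. The protein-coding neighbours of Slc10a1 on its chromosome had less similar profiles. Srsf5, which encodes a splicing factor, lay at 0.269 (rank 1036), and Smoc1, which encodes a calcium-binding matrix protein, at 0.988 (rank 14251). Neither passed with limma (adjusted p = 0.175 and 0.572), although Smoc1 passed without control 3 (-1.06, adjusted p = 0.0183).

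**Figure D3:**
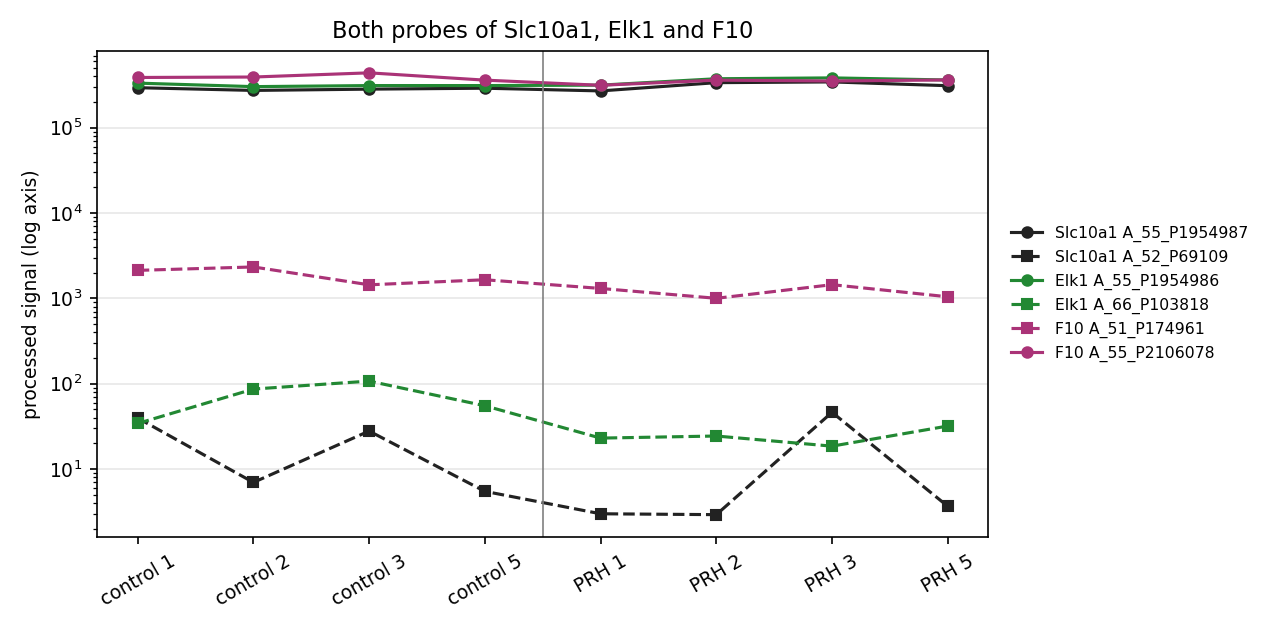
Processed signal (vertical, log axis) of both probes of Slc10a1, Elk1 and F10 on the 8 arrays, bright probes as solid lines and the other probe of each gene dashed. The 3 bright probes stay between 269626 and 439112 on every array, while the dashed probes lie far below and change between arrays.

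Among the tested members, Slc10a7 was the only gene apart from Slc10a1 whose groups did not overlap on the scaled values. Its signal was 349, 279.7, 231 and 216 on control arrays 1, 2, 3 and 5, and 437, 315, 358 and 348 on PRH-labelled arrays 1, 2, 3 and 5. The difference was 1.05 (SE 0.219), and 1.22 (SE 0.169) without control 1. It was above 0 in all 6 scalings, with a lowest value of 0.56.

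Slc10a3 read 1129, 1519, 1736 and 1081 on the control arrays and 923, 1103, 902 and 904 on the PRH-labelled arrays. The scaled groups overlapped, with a difference of 0.10 (SE 0.162) and of 0.062 (SE 0.169) without control 1. Its sign depended on the scaling, and it was below 0 in 2 of 6, with a lowest value of -0.38.

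Slc10a6 has a pair of probes, and both were highest on control 1. Probe A_51_P173678 read 424, 77.8, 145.8 and 84.6 on the control arrays and 140.9, 73.2, 74.3 and 57.3 on the PRH-labelled arrays. Probe A_55_P2015074 read 277.9, 90.8, 77.2 and 75.2 on the control arrays and 69.8, 68.1, 40.9 and 87.7 on the PRH-labelled arrays. The differences were -0.21 (SE 0.615) and -0.18 (SE 0.479) with all arrays. Without control 1 they were 0.36 (SE 0.416) and 0.30 (SE 0.242), and then below 0 in 4 of 6 scalings for both probes. Control 1 thus set the sign of the Slc10a6 difference on this scale.

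The remaining Slc10 genes were near background. Slc10a2, the ileal carrier, was above background only on control 1 (31.7) and PRH-labelled array 2 (14.8). Slc10a4, a transporter-like protein of neurons, did not exceed background clearly on any of the 8 arrays. Slc10a5, an orphan of liver and kidney, read 36.4 on control 1 and between 8.47 and 19.6 on the other control arrays, where it was not well above background. On the PRH-labelled arrays it read 38.0, 32.2, 28.4 and 37.0, all above background. It passed the filter for testing through the PRH-labelled arrays and control 1 alone, so no difference or test is given against the 3 readings below background.

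Alb was high on control 1 alone. It read 21242 there, and 11.8, 7.96 and 13.8 on control arrays 2, 3 and 5, where it was not well above background. On PRH-labelled arrays 1, 2, 3 and 5 it read 21.9, 16.3, 16.2 and 16.2, and the first pair of these were flagged above background. On the scaled values control 1 exceeded the highest other array 657-fold. Without control 1 the unscaled signals were between 7.96 and 13.8 in control and between 16.2 and 21.9 in PRH-labelled samples. All of these lay close to the lowest signals that count as above background, so no order between the groups is read from them. The probe was not tested.

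Ttr read 3355 on control 1 and between 4.65 and 9.94 on the other 7 arrays, none of them above background. Control 1 was at least 194-fold above them, with readings below background raised to the lowest signal above it on that array.

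Apoa1, measured by 10 spots an array, read 1551 on control 1 and 12.5, 19.0 and 10.8 on control arrays 2, 3 and 5. It read 29.9, 14.1, 41.0 and 11.7 on the PRH-labelled arrays, the first 3 above background. Control 1 exceeded the highest other array by 26.3-fold. The difference was -0.48 (SE 1.61) with all arrays, and the groups overlapped. That value sets control 1 and control readings below background against the PRH-labelled arrays, so its size has no meaning. Without control 1 no control reading was above background, so no difference is given.

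The pair of Apoa2 probes disagreed away from control 1. Probe A_55_P1966035 read 9564 on control 1 and between 2.99 and 7.30 on the rest, none above background, so that control 1 was at least 554-fold higher. Probe A_55_P2178553 read 22632 on control 1, 4082, 4166 and 3025 on the other control arrays and 3264, 2678, 4367 and 2804 on the PRH-labelled arrays. Every array was above background for it, and control 1 exceeded the next by 3.59-fold. The difference at that probe was -0.27 (SE 0.644), and 0.42 (SE 0.234) without control 1. It turned negative in 1 of 6 scalings without control 1 (-0.14).

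Fgb read 14878 on control 1 and 67.2, 42.8 and 29.9 on control arrays 2, 3 and 5. It read 90.5, 68.4, 77.9 and 79.0 on the PRH-labelled arrays, so control 1 was 111-fold above the highest of the rest. The difference was -0.67 (SE 1.90) with all arrays and 1.46 (SE 0.232) without control 1. Without control 1 the groups did not overlap, even before scaling, although the gap between 67.2 and 68.4 was narrow.

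Serpina1a was read by a pair of probes. Probe A_55_P2165414 read 42768 on control 1 and 1133, 797 and 899 on the other control arrays, against 1361, 1206, 1155 and 1231 on the PRH-labelled arrays. Probe A_55_P2010312 read 8998 on control 1 and 329, 291 and 292 on the other control arrays, against 831, 505, 539 and 679 on the PRH-labelled arrays. Control 1 exceeded the highest of the rest by 21.3-fold and 7.33-fold. The differences were -0.38 (SE 1.26) and 0.42 (SE 1.13) with all arrays, and 1.04 (SE 0.139) and 1.68 (SE 0.220) without control 1. Mice carry several near-identical Serpina1 genes, so the reading may be shared among copies.

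Of the 14 member probes, 10 from 8 genes passed the filter of being well above background on at least 4 of 8 arrays, and neither Alb nor Ttr had such a probe. As a description beside the rest of the array, 2 of these 10 were past the threshold used below for other genes (limma adjusted p under 0.05), Slc10a1 and Slc10a7, both higher, against 26.2% of all tested probes. Slc10a1 was past it with the 75th percentile alone among the 6 scalings, and Slc10a7 with 4 of the 6. Without control 1 there were 5, all higher, with Fgb and both Serpina1a probes added, against 33.8%. Counted by groups that did not overlap, the numbers were again 2 (31.5% of all tested probes) and 5 (43.3%). The members were chosen on this contrast, so nothing is read from these counts. The number of calls over all probes, 10327 with all arrays, fell to between 6591 and 6865 without control 2 or 5 or PRH-labelled 1 or 5.

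Among hepatocyte member probes with control readings above background outside control 1, the values without that array depended in size on the scaling. Over the 6 scalings Fgb was higher in PRH-labelled samples by 0.28 to 1.46, and the Serpina1a probes by 0.48 to 1.04 and by 1.12 to 1.68. Apoa2 probe A_55_P2178553 ran from -0.14 to 0.66. The probes of Alb and Ttr and the other Apoa2 probe gave no difference, and Apoa1 had control readings below background.

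**Figure D4:**
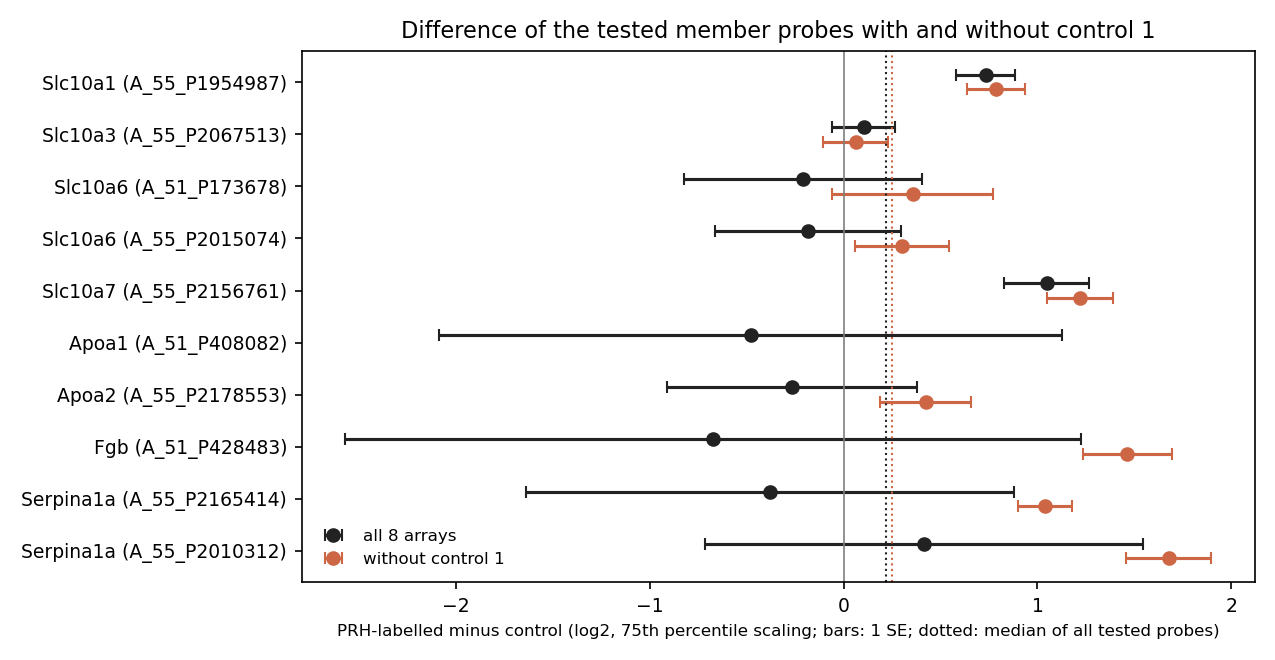
Difference between PRH-labelled and control arrays (log2, 75th percentile scaling) for the 10 tested member probes with all arrays (black) and without control 1 (orange, not drawn for Apoa1, whose other control readings were below background), bars of 1 SE, and dotted lines at the median of all tested probes. Slc10a1 and Slc10a7 barely move, while the Fgb value goes from -0.67 to 1.46 and its SE from 1.90 to 0.232.

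Whether other liver genes follow Slc10a1 or control 1 was described over 6 lists, 163 genes in all, of which 161 had a probe. Control 1 was at least 4-fold above every other array for 58 of their 197 probes. The share was 45.6% of probes of hepatocyte secreted proteins, 45.5% of acute-phase genes and 35.4% of hepatocyte enzymes. It was 11.8% for bile acid transport, 7.69% for bile acid synthesis and 3.7% for liver transcription factors. Control 1 had 55 of 57 secreted-protein probes and 46 of 48 enzyme probes above background, against 31 to 41 and 21 to 34 on the other arrays.

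**Figure D5:**
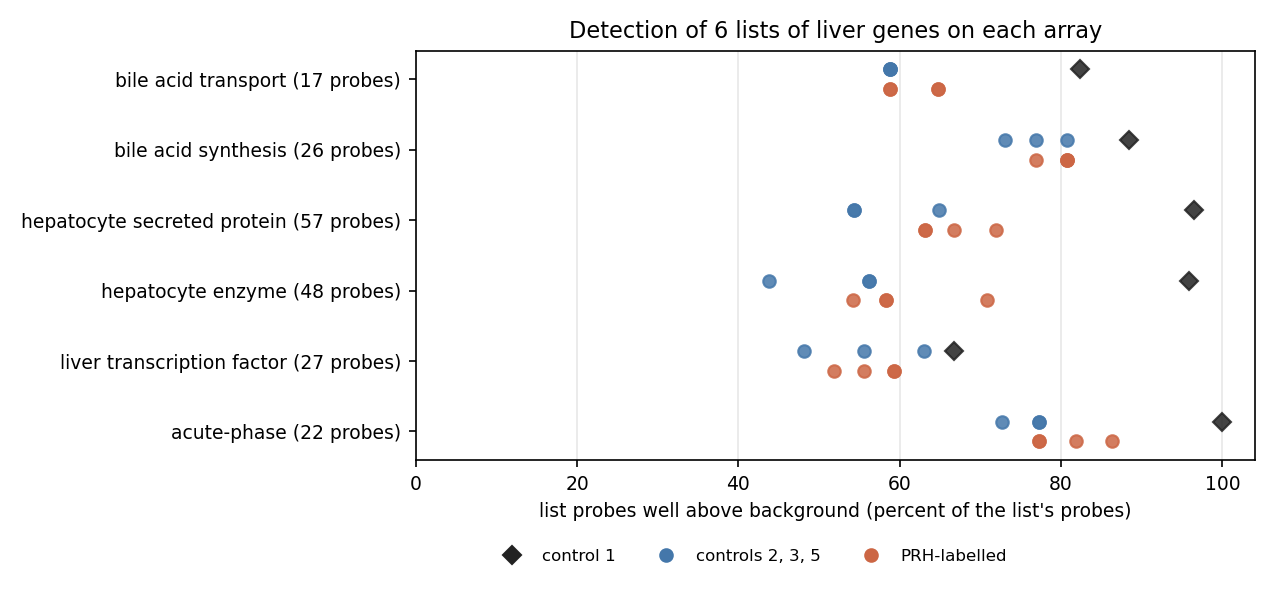
Share of each list's probes that were well above background (horizontal, percent) on every array, with control 1 as black diamonds, the other control arrays blue and the PRH-labelled arrays orange. Control 1 is the highest array in all 6 lists, with 22 of 22 acute-phase probes and 55 of 57 secreted-protein probes detected.

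In these lists 112 genes were tested, each through its brightest probe. With limma 13 were higher and 4 lower in PRH-labelled samples, where 16.1% of all tested probes were higher and 10.1% lower, and the list median of 0.13 lay under the 0.22 of all probes. Without control 1 the counts were 27 and 5 and the median 0.69, where 18.2% and 15.6% of all probes passed and their median was 0.25. With that array left out, median centring gave 17 higher and 15 lower, quantile normalization 23 and 6, normexp 19 and 8, the authors' values 20 and 6, and spike-in centring 0 and 0. Of the 17 genes that passed with all arrays, 16 passed in the same direction without control 1. With all arrays the split also depended on the scaling: median centring gave 6 higher and 10 lower, quantile normalization 10 and 6, normexp 9 and 7, and the authors' values 8 and 5. Over all tested probes these settings, in this order, gave 3017 higher and 10470 lower, 4468 and 6224, 3919 and 6139, and 3989 and 5886, against 6354 and 3973 with the 75th percentile. With spike-in centring limma passed 0 list genes (11 at an unadjusted p under 0.05) and 3 of all tested probes.

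Among bile acid carriers 2 of 9 tested genes were higher and 1 was lower, with a median of 0.24, and without control 1 there were 3 and 1, with a median of 0.28. The median was -0.065 without control 3, -0.026 without control 5 and 0.056 without control 2, and it lay between -0.28 and -0.22 with median centring, quantile normalization, normexp and the authors' values. A single carrier passed without control 2 or 5 or PRH-labelled 1 or 3. Slco1a1, an organic anion carrier of hepatocytes, read between 91.6 and 154.1 on control and between 174.0 and 197.9 on PRH-labelled arrays, and it rose by 1.27 (SE 0.197, limma adjusted p = 0.00706), or by 1.45 without control 1 (0.00121). Slco1a4, a related carrier also found in brain endothelium, rose by 1.18 (SE 0.296, adjusted p = 0.0239). Its call was lost without control 2, 3 or 5 or PRH-labelled 1, 3 or 5 (adjusted p up to 0.0669), and with centring on the median or quantile-normalized values. Abcc4, an efflux pump of the basolateral membrane, fell by 0.73 (SE 0.193, adjusted p = 0.0288), and its call was lost without control 2 or 5 or PRH-labelled 1, 2 or 3 (up to 0.0754). Abcb4 (-0.39, adjusted p = 0.161), Abcc3 (0.70, 0.163) and Abcg2 (0.24, 0.313) did not pass, although Abcb4 passed after median centring (-0.88, 0.0273). Abcb11, the canalicular bile salt pump, was above background on control 1 alone, at 234.7.

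Slco1b2, the hepatocyte organic anion carrier that works beside NTCP, read 863 on control 1, between 43.7 and 47.6 on the other control arrays and between 62.6 and 88.8 on the PRH-labelled arrays. It is named after its values were seen. It did not pass with all arrays (limma adjusted p = 0.835). Without control 1 it was higher by 1.41 in PRH-labelled samples, which is given as a description.

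Of 18 tested genes of bile acid synthesis and its control, 5 were higher and 1 lower, with a median of 0.33, and the counts were again 5 and 1 without control 1, with a median of 0.65. The median was 0.11 without PRH-labelled 3 and -0.15 after median centring. Klb, the co-receptor for FGF15 and FGF21, read 250.8, 137.4, 147.7 and 198.0 on control arrays and 602.5, 481.7, 495.9 and 433.1 on PRH-labelled arrays, and rose by 2.08 (SE 0.286, limma adjusted p = 0.00674), or by 2.28 without control 1 (0.00147). Fgfr4, its partner receptor, rose by 0.75 (adjusted p = 0.0171), a call lost after median centring. Nr0b2, the repressor SHP that shuts off bile acid synthesis, rose by 1.41 (adjusted p = 0.0125), and Acot8, a peroxisomal thioesterase, by 0.95 (adjusted p = 0.00674). A second Acot8 probe, A_55_P2038412, did not pass (0.25, adjusted p = 0.207).

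Hsd3b7, an early enzyme of the pathway, was higher by 0.41 (adjusted p = 0.0309), with 0.0620 when mouse number was a block. It was -0.071 after median centring, and its call was lost without any 1 array other than control 1 (adjusted p 0.0596 to 0.0815). Cyp27a1, a mitochondrial sterol hydroxylase, fell by 0.46 (adjusted p = 0.0462), and its call was lost with the block (0.0751) and without any 1 of the 8 arrays (0.0532 to 0.113). Hsd17b4 (-0.39, 0.0933), Acox2 (0.60, 0.119) and Cyp39a1 (0.40, 0.216) did not pass, although Hsd17b4 passed without control 1 (0.0331), after median centring (0.0182), after normexp (0.0109) and in the authors' values (0.0149). Cyp7a1, the rate-limiting enzyme, read 29.3 at most and was above background on 3 arrays.

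Of 31 tested genes for secreted proteins 2 were higher and none lower, with a median of 0.05, while without control 1 there were 8 higher and the median was 0.99. Without control 1 the other scalings but spike-in centring gave 4 or 5 higher and 1 or 2 lower, with medians from 0.15 to 0.43. With all arrays the median was below 0 under the other 5 scalings (-0.44 to -0.075), -0.15 without control 2 and -0.31 without control 3. With mouse number as a block 5 were higher, 1 passed without control 2 or 5 or PRH-labelled 1, and after median centring 2 were lower and 0 higher. Apoa5, an activator of lipoprotein lipase, rose by 1.00 (SE 0.227, limma adjusted p = 0.0171), and F7, a clotting protease, by 0.76 (SE 0.178, adjusted p = 0.0190), while a second F7 probe did not pass (0.60, 0.0911). The F7 call was lost without control 2 or 5 or PRH-labelled 1 (up to 0.0565), and both calls were lost after median centring, after normexp and in the authors' values. F11, another clotting protease, was 0.94 higher and did not pass (0.0704), but it passed with the block (0.0226). Apoe (0.36, 0.0792) did not pass, but it passed with a trended variance (0.0233). Without control 1 the F11 and Apoe differences were 1.26 and 0.41, past the threshold but given as a description.

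F10, a clotting protease, also had a very bright probe with small changes between arrays. It read between 360728 and 439112 on control arrays and between 313815 and 362627 on PRH-labelled arrays, so the unscaled signals ran lower in the PRH-labelled group. The difference was 0.41 with the 75th percentile (limma adjusted p = 0.0541), -0.077 after median centring and -0.091 with quantile normalization, so its sign depended on the scaling. With the 75th percentile it passed without control 1 (0.0413), with detection required on all arrays (0.0398) and with a trended variance (0.0147). Its other probe read between 1002 and 2334, with a difference of -0.052. The other fibrinogen chains were likewise highest on control 1. Fgg read 11926 on control 1 and at most 35.1 elsewhere. Fga, by its brighter reading on control 1, read 1235 there and at most 72.9 elsewhere. The Fga probe that was brightest by mean and stood for the gene read only 234 on control 1 and at most 112.9 elsewhere.

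Of 25 tested hepatocyte enzymes 1 was higher and 1 lower, with a median of 0.32. The higher gene is counted but not reported here. With detection required on all arrays there were 0 higher and 1 lower (median 0.091), and with no filter also 0 and 1 (-0.062). Without control 1 there were 6 higher and 2 lower, with a median of 1.11. Without that array, median centring gave 5 and 4 with a median of 0.55, quantile normalization 7 and 1 (0.61), normexp 4 and 1 (0.27) and the authors' values 5 and 1 (0.34). With all arrays the median was -0.17 after median centring, 0.080 after normexp and 0.10 when each gene's probes were averaged. The count was 0 without control 2 or 5 or PRH-labelled 1 and 1 without control 3 or PRH-labelled 2, 3 or 5. Aldh1b1, a mitochondrial aldehyde dehydrogenase, fell by 0.72 (limma adjusted p = 0.0222), and its call was lost without control 2 or 5 or PRH-labelled 1 (up to 0.0599). Uox (0.46, 0.0675), Ass1 (0.60, 0.0713) and Fah (-0.46, 0.0768) did not pass, although all 3 passed with a trended variance (0.0389, 0.0433 and 0.0433). A second Uox probe ran the other way (-0.25, 0.419).

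Of 12 tested liver transcription factors 3 were higher and 1 lower, with a median of 0.14, and the counts were the same without control 1, with a median of 0.087. The median was -0.34 after median centring. With each gene read as the mean over its probes, 2 were higher and 1 lower. In all 2 passed without control 3 or 5 or PRH-labelled 2 or 5. Rxra, the shared partner of many nuclear receptors, rose by 1.02 (SE 0.174, limma adjusted p = 0.00798), or by 1.16 without control 1, while a second Rxra probe, A_51_P307370, did not pass (0.21, 0.640). Cebpa, a factor of hepatocytes and fat cells, fell by 0.84 (SE 0.150, adjusted p = 0.00877). Ppara, which drives fatty acid oxidation, rose by 0.95 (adjusted p = 0.0220) and lost its call with the block (0.0524), in the authors' values, after median centring, and without control 2, 3 or 5 or PRH-labelled 2, 3 or 5 (up to 0.0625). Its scaled groups overlapped with all arrays, and a second Ppara probe did not pass (0.998, SE 0.881, limma adjusted p = 0.425). Nr5a2 rose by 0.86 (adjusted p = 0.0266) and lost its call under the other 5 scalings, and without control 3 or 5 or PRH-labelled 1, 2 or 5 (up to 0.0720). Nr1h3 (-0.55, 0.122), Gata6 (-0.95, 0.271) and Onecut2 (1.29, 0.304) did not pass, although Onecut2 passed with the block (0.0111) and Nr1h3 after median centring (0.0123) and normexp (0.0495). Hnf4a, the central hepatocyte factor, read 467.7 on control 1 and was not above background on any other array.

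None of 17 tested acute-phase genes passed with limma, and 0 had an unadjusted p under 0.05, with a median of 0.00. Without control 1 the median was 0.56 and 2 were past the threshold, both higher (Saa1 and Hpx), given as a description. Without that array, median centring gave 0 (median -0.006), spike-in centring 0 and normexp 1. Quantile normalization and the authors' values gave 2 each. With all arrays the smallest p-values were those of Mt1 (0.34, limma adjusted p = 0.185), Lcn2 (0.86, 0.254) and Mt2 (0.25, 0.327). Hp, which encodes haptoglobin, read 74887 on control 1 and between 1084 and 5456 on the others.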

How the data were processed

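Each of the 8 samples has a scanner file of spot intensities. The deposited intensities come from Agilent Feature Extraction 10.7.3.1 on a mouse design (mm9) and the processed signal is background-corrected, per the file headers, whereas the submitters' processing notes name version 9.1. The authors also deposited a table of normalized intensities, whose background correction is not given in the sources used here. No spot was saturated. Between 64.2% and 69.8% of probes were well above background on control arrays, and between 72.2% and 73.9% on PRH-labelled arrays. The 75th percentile signal was 1003 to 1283 on control arrays and 679 to 762 on PRH-labelled arrays. Scaling to it therefore raises PRH-labelled values relative to control values. Precision is limited by having 4 arrays per group.

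The values used are log2 of the processed signal minus the 75th percentile of the array's non-control spots, averaged over the spots of a probe. Probes were named through RefSeq accessions (GRCm38.p6, names only), with a symbol for 26582 of 55681, and were tested if well above background on at least 4 of 8 arrays. The fit used limma 3.58.1 in R 4.3.3 (group alone, two-sided, Benjamini-Hochberg over 39463 probes, threshold 0.05), which was tested on simulated data. The 4 same-numbered pairs of arrays correlated at 0.200, 0.422, 0.651 and 0.257 in their deviations from the group means, all over 0.1. Mouse number was therefore taken to pair the arrays and tried as a block. Arrays numbered 1, 2 and 3 correlated best with their same-numbered array, but those numbered 5 did not. Mouse number is also a position on the slide, so pairing by mouse and by position cannot be told apart.

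Alternatives were other scalings, normexp on the median and background signals (the files hold no mean signal), the authors' values, other filters, the mean of a gene's probes, a trended variance and each array left out. The fits under each scaling without control 1 and the percentile over averaged probes were added after seeing the data. The members and lists were chosen with earlier results of these data known. Named are all members, the other Slc10 genes, Hhex, the neighbours of Slc10a1, the 6 genes nearest in profile, and from each list up to 6 genes that passed and 3 that did not, by smallest p. Slco1b2, Abcb11, Cyp7a1, Fga, Fgg, Hnf4a, Hp, Saa1 and Hpx, and the genes of the other observations, were named after their values were seen. No promoter of Slc10a3 or Ttr was used here, and some list genes are counted but not reported here.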

Additional observations from a re-analysis of the deposited data

Results flagged for a closer look

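A single array stood far from the other 3 of its group in 19 of 108 group checks, and chance flags about 1 in 20. The value given is the gap to the nearest array as a share of the group's range on the scaled log2 values. In 14 of them control 1 was the highest control array. Among the members these were Slc10a6 (probe A_55_P2015074, 0.962), Slc10a7 (0.955), Alb (0.922), Ttr (0.921), Apoa1 (0.884), Apoa2 (0.876 and 0.933), Fgb (0.909) and Serpina1a (0.953 and 0.966). Among other genes they were Slc10a2 (0.968), Slco1a1 (0.93), F11 (0.883) and Rxra (0.911).

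The other 5 lay elsewhere. PRH-labelled array 3 was highest for the dim Slc10a1 probe (0.917) and lowest for Onecut2 (0.937). PRH-labelled array 2 was highest for Slc10a2 (0.873). Control 3 was lowest for Smoc1 (0.861) and Uox (0.863). What set these arrays apart was not tested.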

How the results depend on the processing

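With spike-in centring 3 probes passed over the whole array in place of 10327, and 0 genes in each of the lists. Other moved counts were, for secreted proteins (2 in the main analysis), 1 after normexp, 1 in the authors' values, 5 with the replicate block and 4 with a trended variance, and, for enzymes (2), 1 after normexp, 1 in the authors' values, 1 with no filter, 1 with detection on all arrays and 5 with a trended variance. The liver transcription factors had 2 in place of 4 in the authors' values. The bright Slc10a1 probe's difference of 0.73 was 0.25 after median centring, 0.30 after quantile normalization, 0.26 after normexp and 0.27 in the authors' values, and 0.73 with the replicate block (SE 0.167). Hsd3b7 turned to -0.071 after median centring. Leaving out 1 array at a time gave 6591 to 13355 probes passing, 1 to 4 carriers, 4 to 6 synthesis genes, 1 to 8 secreted proteins, 0 to 8 enzymes, 2 to 4 transcription factors, 0 to 2 acute-phase genes and a Slc10a1 difference of 0.63 to 0.79. With the mouse numbers as pairs, 13560 probes passed, the calls of Hsd3b7, Cyp27a1 and Ppara were lost, F11 and Onecut2 gained one, and no other named gene changed call. For single genes and members, 722 values kept side and direction or stayed within the replicate spread, 97 lost the threshold, 21 gained it and 3 moved further. Probes near the lowest signals above background, such as Alb outside control 1, allow no order between arrays.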

Other observations

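Control 1 carried more than liver genes. Of the 103 named genes that it read at least 10-fold above every other array, 36 were members or on the lists and 67 were not. Further liver genes among these were Fabp1, the fatty acid binding protein of hepatocytes (6044 on control 1, at most 6.36 elsewhere), Mbl2 (1191 against 11.4), and Serpina1c, Serpina1d and Serpina1e, the close copies of Serpina1a. Genes of B cells and lymph node were also there: Glycam1, a ligand of high endothelial venules, read 19016 on control 1 and at most 18.9 elsewhere, Ms4a1, the B-cell antigen CD20, 5108 against 33.0, Cd79b 16791 against 341.6, and Jchain, a chain of secreted antibody, 43025 against 942. Car3, a carbonic anhydrase abundant in fat and muscle, read 12375 against 419.7. Genes of fat cells were there too: Adipoq read 5420 against 355.8, Retn 4488 against 162.3 and Cidec 2876 against 262.6. Clec4f, a marker of the liver's resident macrophages, was among the 67 as well. The part of other tissue in control 1 was not tested.

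Some liver enzymes followed mouse number rather than group. Cps1, the first enzyme of the urea cycle, read 123.7, 7.43, 101.5 and 6.18 on control arrays 1, 2, 3 and 5 and 218.2, 3.80, 162.2 and 8.59 on the PRH-labelled arrays, so numbers 1 and 3 were high in both groups. Akr1c6, a steroid dehydrogenase of liver, read 1445, 7.38, 102.6 and 5.97, then 183.5, 8.02, 152.7 and 3.66, in the same order. The pair of Cyp2e1 probes ran opposite ways. Outside control 1, probe A_55_P1966690 was highest on arrays numbered 1 and 3 (80.0, 165.4 and 158.0, against 21.2 to 30.9), and probe A_55_P1999301 was lowest on these (93.7, 149.7 and 107.8, against 731.8 to 1134). Mouse number is also a position on the slide, so these cannot be told apart.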
